A study of Mus musculus with 374 samples.

Results

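A set of 10 lysosomal genes was followed across sorted mouse blood cells: the cathepsin genes Ctsa, Ctsb, Ctsc, Ctsd, Ctsh, Ctsl, Ctss and Ctsz, the legumain gene Lgmn, and the lysozyme gene Lyz2. They were chosen by name and matched through their Ensembl identifiers, and all 10 were among the 19829 mouse gene rows of the count table. Every cell came from 1 wild-type C57BL/6 female aged 10-13 weeks, with no treatment. B lymphocytes (B220+, low forward scatter, 44 wells), granulocytes (Mac1+ Gr1+, 96 wells), erythroblasts (Ter119+ CD44+, 96 wells) and progenitor/stem cells (Lin- Kit+ Sca1+, 95 wells) were taken from its marrow, and T lymphocytes (CD3+, low forward scatter, 43 wells) from its thymus. Single cells were index sorted onto 1 plate, so that each well also carries its antibody fluorescence, and were sequenced with CEL-seq2, which counts mRNA 3′ ends by unique molecular identifiers (UMIs). Each population is thus 1 sample of 1 mouse, and neither a test nor a replicate error can be given. All intervals are 95% intervals for counting error only, exact Poisson for a level and exact conditional binomial for a fold, and where "higher" is said to exceed counting error the interval of the fold excludes 1.

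Lysosomes are acidic compartments in which proteins taken up or discarded by the cell are broken down. Ctsb, Ctsc, Ctsh, Ctsl, Ctss and Ctsz encode cysteine proteases of the papain family, Ctsd an aspartic protease, Ctsa a serine carboxypeptidase and Lgmn an asparaginyl endopeptidase. Most are made as inactive precursors and are cut to their active form in the acidic lumen. Lyz2 encodes the lysozyme of mouse myeloid cells, which cleaves bacterial cell walls and is a widely used marker of granulocytes, monocytes and macrophages.

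The wells held 8 to 24033 UMIs on mouse genes, with medians of 3028.5 (B), 4347 (T), 3880 (granulocytes), 6113.5 (erythroblasts) and 7959 (progenitor/stem). Levels are given in CPM, the UMIs of a gene scaled to a library of 1000000 UMIs on mouse genes after summing over the wells of a population. Each molecule was counted once at its 3′ end, so that no correction for length was made. The 374 well barcodes were all distinct. In each population its own marker list was higher than in the other 4. The overall profile of 7 wells, computed without the 10 genes, was nearest to another population. One of them, the well A8 labelled as a B lymphocyte, held no UMI on the 7 B lymphocyte markers but 11.5% of its UMIs on 8 granulocyte markers, and its Gr1 fluorescence was 15209 where the other B lymphocyte wells reached at most 872. Its B220 fluorescence, 352, was below the 358 to which the others went down. Markers of other cells had UMIs in every population: haemoglobin and 3 other erythroblast markers took 1.84% of UMIs in T lymphocytes, and granulocyte markers 0.365%. Their source was not tested. Where no UMI was found, the limit given is the level of 3 UMIs, which is not an interval limit.

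The sequences upstream of the lysozyme pair, of Ctsd and of Ctsc are shown because the levels of Lyz2 and its neighbour Lyz1 went together and because Ctsd and Ctsc differed most in how they were distributed within the granulocyte gate. They are the 250 bases before the RefSeq start (GRCm38.p6), for Lyz2 chr10:117282273-117282522 on the minus strand, for Lyz1 chr10:117292869-117293118 on the minus strand, for Ctsd chr7:142387828-142388077 on the minus strand and for Ctsc chr7:88277835-88278084 on the plus strand. Capitals mark the longest run shared by both lysozyme sequences, CACGTG in Ctsd, and GAGGAA, which reads TTCCTC on the opposite strand, in Ctsc.
Lyz2: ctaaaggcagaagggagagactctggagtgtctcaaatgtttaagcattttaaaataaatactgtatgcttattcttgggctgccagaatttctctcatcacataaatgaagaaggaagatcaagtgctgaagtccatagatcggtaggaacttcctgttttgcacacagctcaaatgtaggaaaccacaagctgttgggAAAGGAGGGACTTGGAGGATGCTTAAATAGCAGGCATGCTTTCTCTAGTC
Lyz1: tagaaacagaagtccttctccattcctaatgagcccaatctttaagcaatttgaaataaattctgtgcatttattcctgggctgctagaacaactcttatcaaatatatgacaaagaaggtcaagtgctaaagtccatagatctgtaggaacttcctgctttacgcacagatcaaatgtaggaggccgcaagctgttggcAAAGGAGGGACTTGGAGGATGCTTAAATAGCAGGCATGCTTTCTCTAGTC
Ctsd: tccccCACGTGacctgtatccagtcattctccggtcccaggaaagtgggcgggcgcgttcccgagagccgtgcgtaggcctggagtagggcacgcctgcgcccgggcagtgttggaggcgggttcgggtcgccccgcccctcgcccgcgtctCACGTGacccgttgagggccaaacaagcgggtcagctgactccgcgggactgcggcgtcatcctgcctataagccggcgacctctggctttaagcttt
Ctsc: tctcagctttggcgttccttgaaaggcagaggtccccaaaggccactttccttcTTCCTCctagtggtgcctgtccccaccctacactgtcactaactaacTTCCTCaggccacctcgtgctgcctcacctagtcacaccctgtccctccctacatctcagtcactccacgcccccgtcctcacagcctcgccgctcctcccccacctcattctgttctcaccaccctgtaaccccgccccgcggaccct
The lysozyme sequences were identical at 80.6% of 248 aligned bases, and the 50 bases next to the start were the same in both. RefSeq promoter windows of 300 bases (250 before and 50 after the start) were found for 8 of the 10 genes. CACGTG, the core letters of the sites bound by the TFEB family, stood in a window of 4 of these 8 genes (Ctsa, Ctsd, Ctsl and Lgmn), and in 7.15% of all 32851 windows. Ctsa and Lgmn have 2 windows each, of which 1 held it. The percentages count windows and not genes. GAGGAA, a purine-rich core bound by PU.1, stood in windows of Ctsc and Ctss and in 28.3% of all windows. TTGCNNAA, a form of the C/EBP site, stood in that of Ctsl and in 10.8% of all. Both strands were searched, and no matches overlapped. None of these motifs was in the Lyz2 window, which says only that these letters are not there.

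Lyz2, ENSMUSG00000069516 (chr10:117277331-117282321, GENCODE M21 on GRCm38), had the most UMIs of the 10, 5788 over all wells. Its level was 13041 CPM in granulocytes (5262 UMIs, interval 12691 to 13398), 523 CPM in B lymphocytes (71 UMIs), 364 CPM in progenitor/stem cells (304 UMIs), 309 CPM in T lymphocytes (62 UMIs) and 133 CPM in erythroblasts (89 UMIs). Granulocytes stood 24.9-fold above B lymphocytes (19.7 to 32.0), 35.8-fold above progenitor/stem cells (31.9 to 40.3) and 97.7-fold above erythroblasts (79.2 to 122). Among the other populations, progenitor/stem cells and T lymphocytes did not differ beyond counting error, while T lymphocytes were 2.32-fold above erythroblasts (1.65 to 3.24).

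The second place of B lymphocytes rested on 1 well. Well A8 held 39 of their 71 Lyz2 UMIs, and without it the level was 244 CPM (167 to 344). Single wells of the granulocyte gate held 0, 41 and 212 Lyz2 UMIs at the lowest, the median and the highest, and 93 of 96 had at least 1. The corresponding values were 0, 3 and 19 in progenitor/stem cells, 0, 1 and 12 in T lymphocytes, 0, 1 and 39 in B lymphocytes and 0, 1 and 7 in erythroblasts. A Lyz2 UMI was found in 91.6% of progenitor/stem wells, 72.1% of T, 59.1% of B and 54.2% of erythroblast wells. Once each well was thinned to 1000 UMIs these shares became 31.4%, 26.4%, 27.1% and 12.7%, against 97.4% in granulocytes. Lymphocytes are not known to make lysozyme, and their share is given as background.

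The low levels of Lyz2 were read against the granulocyte markers of the same wells. For every 1000 UMIs on the 8 markers (the calprotectin genes S100a9 and S100a8, with Retnlg, Mmp8, Lcn2, Camp, Ltf and Ngp) the granulocyte gate held 86.0 Lyz2 UMIs (83.6 to 88.5). T lymphocytes held 84.8 (64.4 to 110), erythroblasts 77.6 (61.8 to 96.3) and B lymphocytes without well A8 82.1 (55.3 to 118), all with intervals that include the value of the whole gate. In the 83 gate wells poor in monocyte markers, described further on, the ratio was 59.8 (57.8 to 61.8), which the intervals of T lymphocytes and erythroblasts do not include. Progenitor/stem cells held 159 (140 to 180), and 182 (159 to 207) without the wells K6 and M14, which held 174 and 201 granulocyte marker UMIs, and the well nearest to another population. K6 and M14, with 19 and 14 Lyz2 UMIs, were left out after the data were seen. Leaving out wells rich in the markers tends by itself to raise this ratio, so nothing is concluded from the rise. Whether RNA set free from granulocytes keeps the ratio of its source was not tested, nor was its part in each level.

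**Figure D1:**
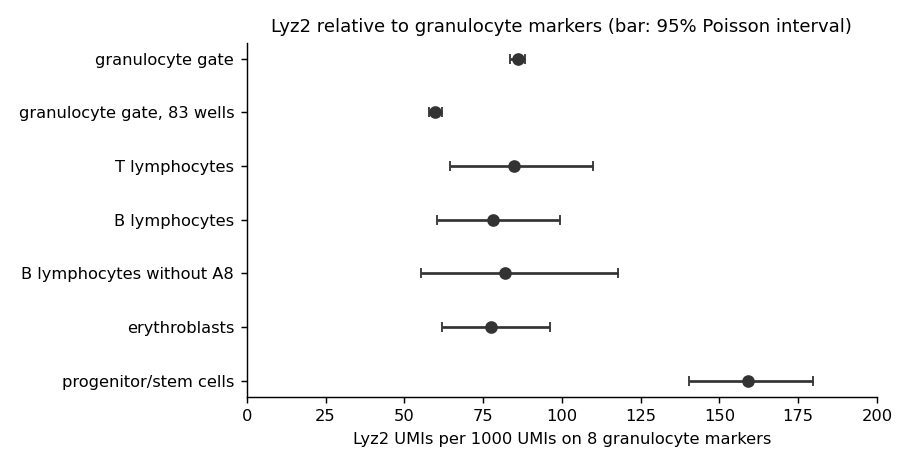
Lyz2 UMIs per 1000 UMIs on 8 granulocyte markers (horizontal axis) in each set of wells. Bars are 95% exact conditional binomial intervals for a ratio of Poisson counts. T lymphocytes, B lymphocytes and erythroblasts lie between 77.6 and 84.8, the whole granulocyte gate lies at 86.0 and its 83 wells poor in monocyte markers at 59.8, and progenitor/stem cells lie at 159.

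The neighbouring lysozyme gene Lyz1 (chr10:117287797-117292868), known for the lysozyme of intestinal Paneth cells, was also highest in granulocytes. It was at 657 CPM in granulocytes (265 UMIs), with 8 UMIs in progenitor/stem cells, 3 in erythroblasts, 1 in T lymphocytes and 2 in B lymphocytes, both in well A8. The coding sequences of both genes were identical at 95.0% of bases and 15.4% of the 50-base windows of the Lyz2 transcript also occur in Lyz1, so that the division of counts between them is uncertain. Summing both genes gave a log2 ratio of granulocytes to progenitor/stem cells of 5.20, against 5.16 for Lyz2 alone. Over all 374 wells Lyz1 was also the gene most like Lyz2 (Pearson r = 0.72 of log2(CPM + 10), among 1912 genes with at least 200 UMIs), followed by Hp (0.71), Plbd1 (0.70), Tyrobp (0.69) and Anxa1 (0.68). These wells share 1 plate and 1 mouse and differ in depth and population.

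Of the 10 genes, 7 had at least 50 UMIs over all wells. The highest level was in granulocytes for 6 of these 7 (Lyz2, Ctsa, Ctsc, Ctsd, Ctsh, Ctsz), where 14.1% of the 6317 genes with 50 UMIs were highest. It was in erythroblasts for Ctsb (background 18.7%), and in B lymphocytes (14.3%), T lymphocytes (20.9%) or progenitor/stem cells (31.9%) for none. Against progenitor/stem cells, 5 of 7 genes with enough UMIs were at least 2-fold higher in granulocytes and 0 lower, where 11.7% of 7826 genes were higher and 48.2% lower. In erythroblasts 1 of 6 was at least 2-fold higher and 4 were lower, where 12.1% of 8076 genes were higher and 49.4% lower. The median log2 ratio was 1.34 for the granulocyte comparison and -1.43 for the erythroblast comparison, against -0.95 and -0.98 for all genes tested. These counts depended on the scaling. With TMM factors, 7 of 7 genes were higher in granulocytes (21.0% of all genes higher, 26.3% lower), and in erythroblasts 2 of 6 were higher and 1 lower (22.7% and 32.1%). Relative to ERCC spike-ins, 2 of 7 were higher in granulocytes (5.81% and 73.4%), and Ctsa then stood higher in progenitor/stem cells. They also depended on the wells: in the 83 wells of the granulocyte gate that were poor in monocyte markers, described further on, 3 of 7 were at least 2-fold higher than in progenitor/stem cells (Lyz2, Ctsd, Ctsh) and 2 lower (Ctsa, Ctsc), where 11.0% of 7569 genes were higher and 55.9% lower. The 9 proteases together stood at 1125 CPM in granulocytes (1024 to 1234), 871 CPM in erythroblasts (802 to 945), 464 CPM in B lymphocytes (356 to 594), 409 CPM in T lymphocytes (325 to 508) and 407 CPM in progenitor/stem cells (365 to 453).

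**Figure D2:**
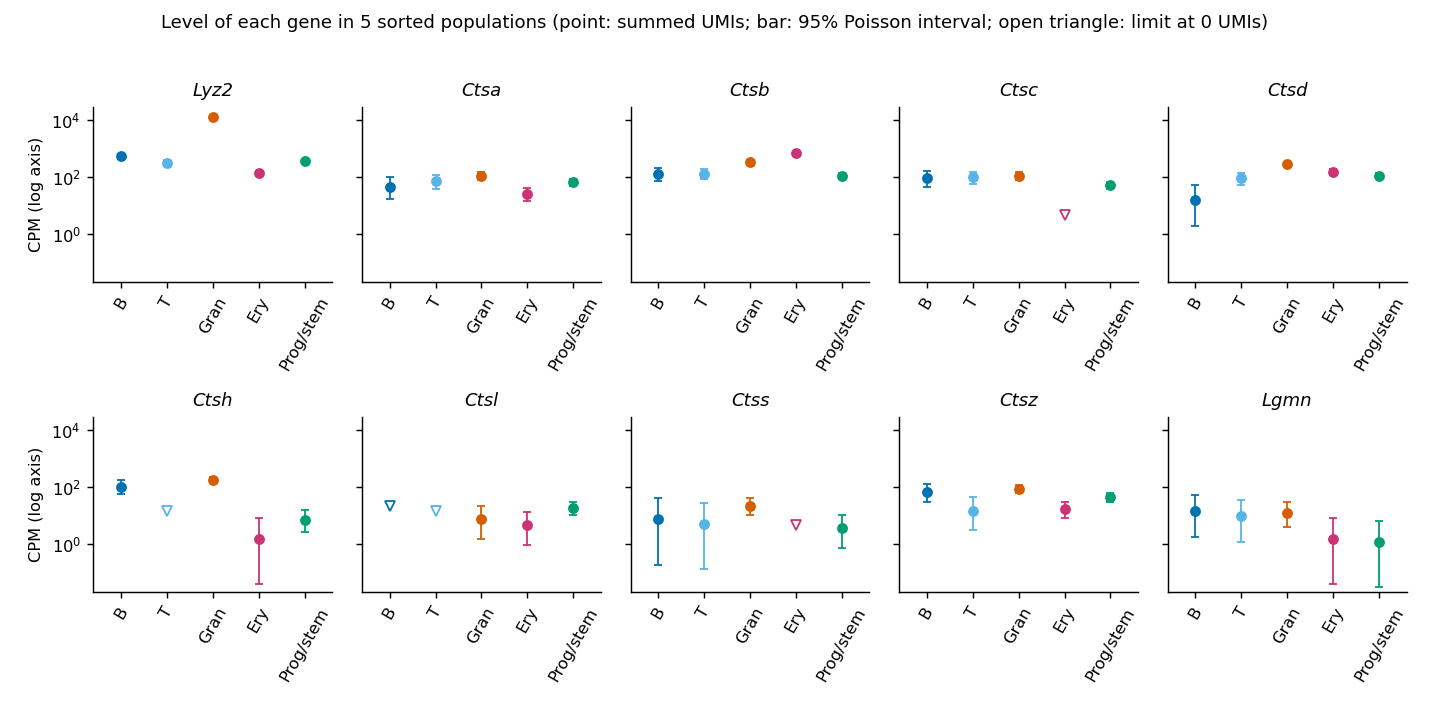
Level of each of the 10 genes (CPM, log axis) in each of the 5 populations, 1 value per population. Bars are 95% Poisson intervals and open triangles mark the level that 3 UMIs would give where none was found. Lyz2 separates granulocytes from all others, Ctsb peaks in erythroblasts, and Ctsc has no UMI there.

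Ctsb, cathepsin B (chr14:63122462-63145923), was the gene of the 10 whose level was highest in erythroblasts. Its level was 670 CPM in erythroblasts (447 UMIs, 610 to 736), 322 CPM in granulocytes (130 UMIs), 125 CPM in B lymphocytes (17 UMIs), 125 CPM in T lymphocytes (25 UMIs) and 107 CPM in progenitor/stem cells (89 UMIs). Erythroblasts were 2.08-fold above granulocytes (1.71 to 2.55) and 6.29-fold above progenitor/stem cells (5.00 to 7.99), and granulocytes 2.57-fold above B lymphocytes (1.55 to 4.55). Progenitor/stem cells and both kinds of lymphocytes did not differ beyond counting error. The high level was spread over the erythroblast wells: 91 of 96 had a Ctsb UMI, with 0, 4 and 15 UMIs at the lowest, the median and the highest, and the well with the most held 3.36% of them. After thinning, 48.4% of erythroblast wells had a UMI, against 10.7% to 20.6% elsewhere. Ctsb made up 76.9% of the protease UMIs of erythroblasts and 26.2% to 30.5% of those of the other populations.

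Haemoglobin RNA was found in every population, and Ctsb was compared with it. Erythroblasts held 2.85 Ctsb UMIs per 1000 haemoglobin UMIs (2.59 to 3.13), and progenitor/stem cells 8.78 (7.05 to 10.8), T lymphocytes 7.05 (4.56 to 10.4) and B lymphocytes 4.42 (2.57 to 7.09). In T lymphocytes and progenitor/stem cells the ratio thus exceeded that of erythroblasts, whereas in B lymphocytes the intervals overlap. Over all wells the genes most like Ctsb were Tdpx-ps1, Hba-a2, Hba-a1, Mgst3 and Trim10 (r = 0.47 to 0.48), each highest in erythroblasts. Within the 95 erythroblast wells with at least 1000 UMIs, by contrast, the Spearman rho of Ctsb with haemoglobin was 0.02.

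**Figure D3:**
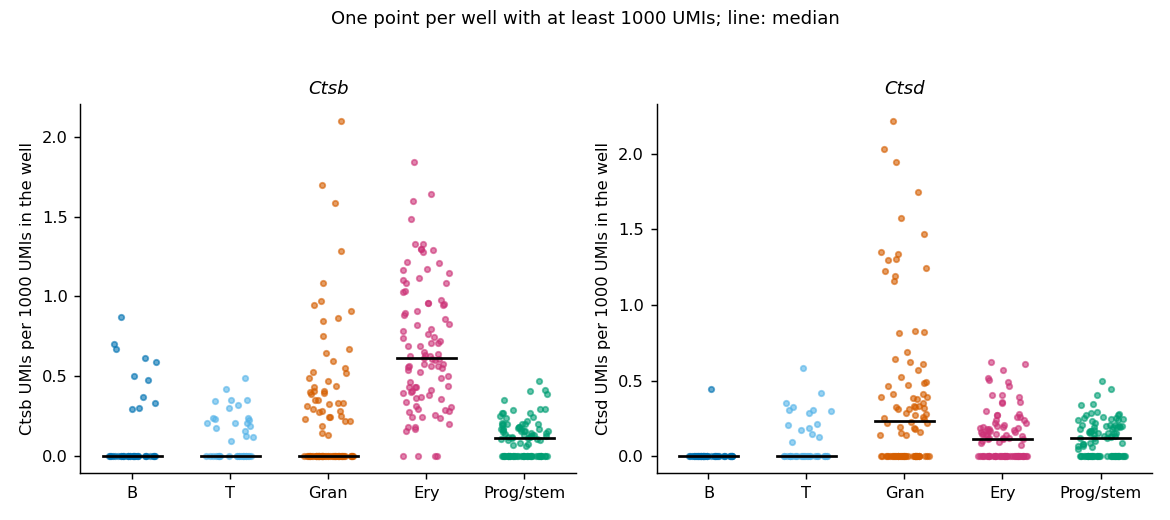
UMIs of Ctsb (left) and Ctsd (right) per 1000 UMIs, 1 point per well with at least 1000 UMIs in each of the 5 populations and a line at the median. Ctsb has its highest median, 0.616, in erythroblasts, and Ctsd its highest, 0.236, in granulocytes, where single wells reach 2.22.

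Ctsd, cathepsin D (chr7:142375911-142388038), was higher in granulocytes, at 283 CPM (114 UMIs), than in erythroblasts at 153 CPM (102 UMIs), with a fold of 1.85 (1.40 to 2.44). Progenitor/stem cells stood at 111 CPM (93 UMIs) and T lymphocytes at 89.8 CPM (18 UMIs), which did not differ beyond counting error. In B lymphocytes it was found only in the well A8, with 2 UMIs. The other 43 B lymphocyte wells had none, where 3 UMIs would be 22.9 CPM. Per 1000 haemoglobin UMIs, erythroblasts held 0.650 Ctsd UMIs (0.530 to 0.789), T lymphocytes 5.08 (3.00 to 8.03) and progenitor/stem cells 9.18 (7.40 to 11.3).

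Ctsc (chr7:88278085-88310888), also called dipeptidyl peptidase I, activates the serine proteases of granulocytes and cytotoxic lymphocytes. Its level was 107 CPM in granulocytes (43 UMIs), 94.8 CPM in T lymphocytes (19 UMIs), 88.4 CPM in B lymphocytes (12 UMIs) and 50.3 CPM in progenitor/stem cells (42 UMIs), with no neighbours in this order apart beyond counting error. Erythroblasts had 0 UMIs in 96 wells, where 3 UMIs would be 4.50 CPM, although they held more UMIs in all than granulocytes. Progenitor/stem cells were 11.2-fold and granulocytes 23.7-fold above that level of 3 UMIs. The lower interval limits of their folds over erythroblasts were 8.70 and 18.4. In the 83 gate wells poor in monocyte markers 4 UMIs were left, a level of 12.8 CPM.

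Ctsh (chr9:90054152-90076089), cathepsin H, an aminopeptidase of lysosomes, was found in granulocytes at 178 CPM (72 UMIs) and in B lymphocytes at 103 CPM (14 UMIs), which did not differ beyond counting error, and hardly elsewhere. Progenitor/stem cells held 6 UMIs (7.19 CPM), erythroblasts 1 UMI in 96 wells and T lymphocytes 0 UMIs in 43 wells, which allows up to 15.0 CPM. B lymphocytes were 14.3-fold above progenitor/stem cells (5.18 to 45.5). Without well A8, 12 UMIs and 91.4 CPM were left in B lymphocytes.

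Ctsa (chr2:164832873-164841032), which also shields beta-galactosidase and neuraminidase in the lysosome, stood at 107 CPM in granulocytes, 69.9 CPM in T lymphocytes, 64.7 CPM in progenitor/stem cells, 44.2 CPM in B lymphocytes and 24.0 CPM in erythroblasts (43, 14, 54, 6 and 16 UMIs). No 2 neighbours in this order differed beyond counting error, while granulocytes were 4.44-fold above erythroblasts (2.45 to 8.45). The 83 gate wells poor in monocyte markers, with 9 UMIs, were 1.20-fold above erythroblasts (0.469 to 2.89), which is within counting error. Ctsz (chr2:174427493-174439039), a carboxypeptidase, stood at 86.7, 66.3, 44.3, 16.5 and 15.0 CPM in granulocytes, B lymphocytes, progenitor/stem cells, erythroblasts and T lymphocytes (35, 9, 37, 11 and 3 UMIs). Of its neighbours, only progenitor/stem cells and erythroblasts differed, by 2.69-fold (1.34 to 5.84).

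The other 3 genes were near the limit of detection, with 21 (Ctsl), 14 (Ctss) and 11 (Lgmn) UMIs over all wells. Ctsl, which cuts the invariant chain in thymic epithelium, had 15 of its 21 UMIs in progenitor/stem cells, each in a different well, 3 in granulocytes and 3 in erythroblasts. Ctss, which does so in antigen-presenting cells, had 9 UMIs in granulocytes, 5 of them in 1 well, 3 in progenitor/stem cells, 1 each in B and T lymphocytes and 0 in erythroblasts. Lgmn had 5 UMIs in granulocytes, 2 each in B and T lymphocytes and 1 each in erythroblasts and progenitor/stem cells. At this depth no full order of the populations can be read from them, and no neighbours in it differed beyond counting error. A few pairs farther apart did, on few UMIs. Ctsl was 3.99-fold higher in progenitor/stem cells than in erythroblasts (1.13 to 21.5). Granulocytes were above progenitor/stem cells in Ctss (6.21-fold, 1.55 to 35.6) and Lgmn (10.3-fold, 1.16 to 489), and above erythroblasts in Ctss (lower limit 3.26).

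The granulocyte gate was not uniform in these genes. Of its 96 wells, 13 held at least 11 UMIs on 9 monocyte and macrophage markers, and the other 83 at most 3. In 12 of the 13 the granulocyte markers took under 1% of UMIs (0.0850% to 0.347%), against a median of 17.8% in the 83, of which 1 was also under 1%. This division was drawn from marker lists that hold none of the 10 genes, with limits of 10 UMIs and 1% set after the data were seen. The leading markers in the 12 wells were Ccr2 (231 UMIs), F13a1 (150), Ms4a6c (81) and Csf1r (49), which are monocyte genes, whereas the macrophage complement genes C1qa, C1qb and C1qc were at 0 there. The Gr1 fluorescence recorded by the sorter went with this division, though not fully. It was 736 to 1987 in the 12 wells, with a median of 1149, against a median of 20943 in the 83, of which 4 were at or below 1987. Side scatter had a median of 28448 in the 12 wells and 56640 in the 83, with ranges that overlap (18624 to 37888 and 25792 to 176000). The remaining well, I13, was high in both lists, with 94 monocyte marker UMIs, 7.30% granulocyte markers and 22425 UMIs in all. It is kept apart, and whether it held 2 cells was not tested.

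**Figure D4:**
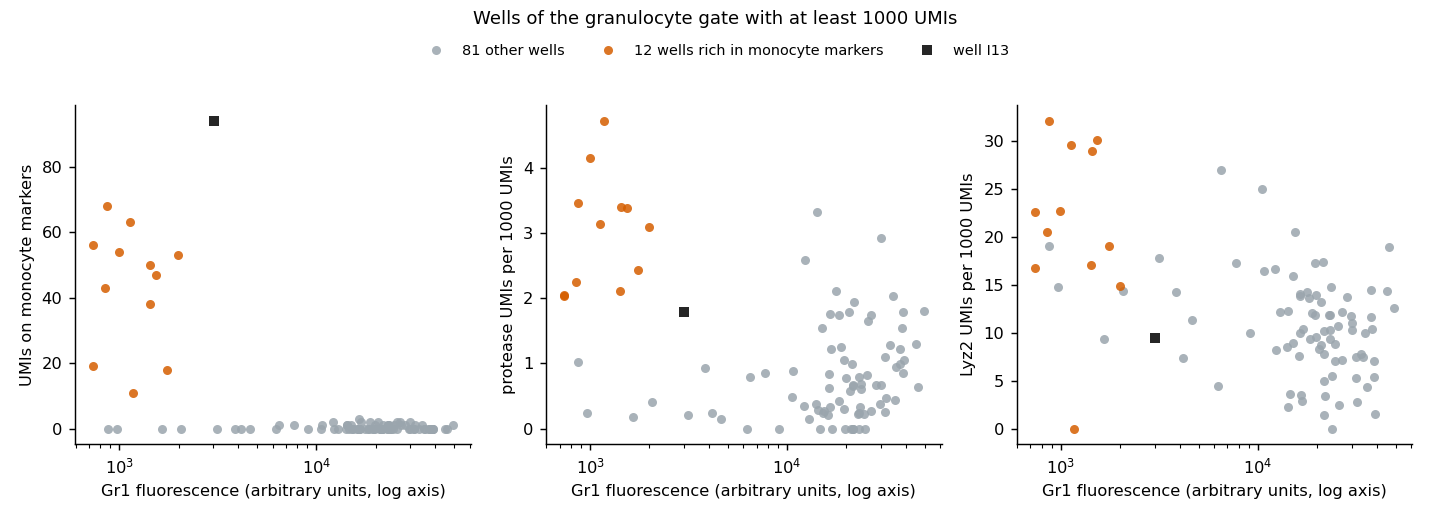
Wells of the granulocyte gate with at least 1000 UMIs, plotted by Gr1 fluorescence (log axis) against UMIs on monocyte markers (left), UMIs of the 9 proteases per 1000 UMIs (middle) and Lyz2 UMIs per 1000 UMIs (right). The 12 wells rich in monocyte markers lie at Gr1 of 736 to 1987 and hold 2.03 to 4.72 protease UMIs per 1000, where the median of the 81 other wells is 0.656.

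The 12 wells held 17.2% of the UMIs of the gate and as many protease UMIs as the 83 others, 207 in each, or 2981 CPM (2589 to 3416) against 664 CPM (577 to 761). Their share was 79.1% of the Ctsc UMIs of the gate, 65.1% of Ctsa, 56.2% of Ctsb, 51.4% of Ctsz and 41.7% of Ctsh. Expressed as levels, Ctsc stood at 490 CPM in the 12 wells and 12.8 CPM in the 83 (38.2-fold, 13.6 to 148), Ctsa at 403 and 28.9 CPM (14.0-fold, 6.41 to 33.6), Ctsb at 1051 and 154 CPM (6.83-fold, 4.68 to 10.0), Ctsz at 259 and 48.1 CPM (5.39-fold, 2.56 to 11.5) and Ctsh at 432 and 106 CPM (4.08-fold, 2.40 to 6.90). Of the 7 genes with at least 20 UMIs in these wells 5 were at least 2-fold higher in the 12 and 0 lower, where 26.9% of 2623 genes were higher and 15.6% lower. Of the rare genes, the 12 wells held 3 of 3 Ctsl UMIs, 4 of 5 Lgmn UMIs and 4 of 9 Ctss UMIs, and the other 5 Ctss UMIs were in I13.

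Lyz2 and Ctsd behaved otherwise. Lyz2 was 1.90-fold higher in the 12 wells (1.78 to 2.02), at 21603 CPM, but the 83 others still stood at 11391 CPM and held 3550 of 5262 UMIs. Ctsd was at 187 CPM in the 12 wells and 311 CPM in the 83 (fold 0.602, 0.309 to 1.08), and the 83 held 97 of its 114 UMIs. One of the 12 wells, I17, had no Lyz2 UMI but 8 of Ctsb, and its CD44 fluorescence was the lowest of them at 2037. The profiles of I17 and of J12, another of the 12 with 121 Lyz2 UMIs, were nearest to progenitor/stem cells.

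**Figure D5:**
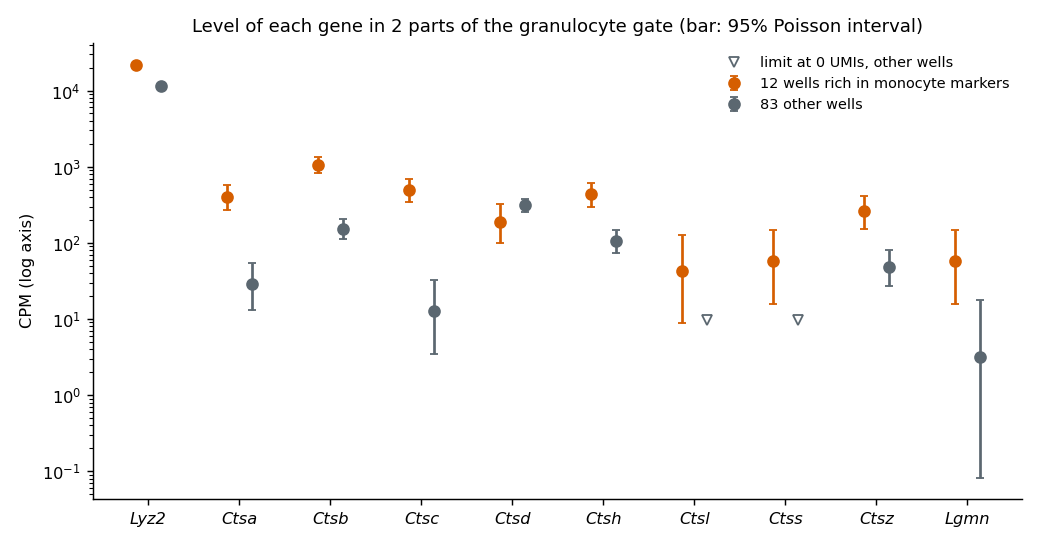
Level of each of the 10 genes (CPM, log axis) in the 12 wells rich in monocyte markers and in the 83 other wells of the granulocyte gate, with 95% Poisson intervals and an open triangle for the level of 3 UMIs where none was found. Ctsc is 38.2-fold apart and Lyz2 1.90-fold, whereas Ctsd is not apart beyond counting error.

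The order of the populations therefore depended on which wells stood for granulocytes. With the 83 wells alone, erythroblasts were 4.35-fold above them in Ctsb (3.23 to 5.99), T lymphocytes 7.39-fold above them in Ctsc (2.45 to 29.9) and progenitor/stem cells 2.24-fold above them in Ctsa (1.10 to 5.16). Their protease sum was 1.63-fold above progenitor/stem cells (1.37 to 1.94), and erythroblasts were 1.31-fold above it (1.12 to 1.55). The number of genes highest in granulocytes was 3 of 7 (Lyz2, Ctsd and Ctsh; 13.8% of all genes), and Ctsh at 106 CPM then lay beside B lymphocytes at 103 CPM. For Lyz2 the 83 wells stood 31.3-fold above progenitor/stem cells (27.8 to 35.3), and for Ctsd 2.79-fold (2.08 to 3.75).

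Among the 81 of these wells with at least 1000 UMIs, Lyz2 went with the granulocyte marker sum (Spearman rho 0.74), with S100a8 (0.71), Ngp (0.55) and Lyz1 (0.51). Camp (0.49) and Ltf (0.43) went the same way, whereas Mmp8 (0.04) and Retnlg (-0.15) did not. Against Gr1 fluorescence the rho of Lyz2 was -0.30. Lyz2 also went with more UMIs per well (0.36), whose part was not tested. For Ngp and Camp, genes of the specific granules, Ctsd went the other way, with rho of -0.48 and -0.51. The rho of Ctsd was 0.45 against side scatter, -0.16 against Mmp8 and 0.25 against Retnlg. The points are single wells of 1 mouse, a Ctsd value mostly rests on 0 to 2 UMIs, and Ctsd also went with fewer UMIs per well (-0.55) and with more haemoglobin (0.53), whose part was not tested.

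The cysteine protease inhibitors that oppose these enzymes were measured for 11 genes. All 4 with at least 50 UMIs (Cst3, Stfa2l1, Gm5483, Cstb) were highest in granulocytes (14.1% of all genes), and 6 of 7 tested were at least 2-fold higher there than in progenitor/stem cells (11.7%). With the 83 wells alone 3 of 4 were highest there (13.8% of all genes), since Cstb was then at 41.7 CPM, below T lymphocytes and progenitor/stem cells. Of 7 tested, 5 were at least 2-fold higher in the 83 wells than in progenitor/stem cells (11.0% of all genes). Cst3 dropped out, at 337 CPM in the 83 wells and 1.21-fold above progenitor/stem cells. Cystatin C, Cst3, stood at 625 CPM in granulocytes, 278 CPM in progenitor/stem cells, 228 CPM in B lymphocytes, 99.8 CPM in T lymphocytes and 48.0 CPM in erythroblasts, and Cstb at 66.9, 47.9, 29.5, 54.9 and 6.00 CPM in the same order. Within the gate the inhibitors parted. Cst3 was 5.26-fold higher in the 12 wells rich in monocyte markers (4.02 to 6.89) and Cstb 4.49-fold (1.92 to 10.5). The stefin A genes had 0 UMIs there: Stfa2l1 had 192 UMIs in the 83 wells, 14.3-fold above the level of 3 UMIs in the 12, Gm5483 118 UMIs (8.76-fold) and Stfa2 41 UMIs (3.04-fold). The upper interval limits of the fold of the 12 over the 83 were 0.0871, 0.143 and 0.423 for Stfa2l1, Gm5483 and Stfa2. Single wells held up to 34 UMIs of Stfa2l1 and 36 of Gm5483, which were found in 25 and 14 of the 83 wells. Stfa1 (18 UMIs), BC100530 (20), Stfa3 (5), BC117090 (4) and Csta1 (2) were also found in the 83 wells and not in the 12. Of these genes only BC100530 was apart beyond counting error, with a fold of the 12 over the 83 of at most 0.909. For Stfa1, Stfa3, BC117090 and Csta1 the upper limits were 1.02, 4.90, 6.80 and 23.9. Stfa1 and BC100530 were found in 5 wells each. Cst7 had 10 of its 15 UMIs in progenitor/stem cells. The stefin A genes are near-identical copies, and their counts may be divided between them.

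Other cathepsin genes had patterns of their own. Ctse, an aspartic protease of endosomes, was at 2766 CPM in erythroblasts (1844 UMIs) and 168 to 258 CPM in the others. Per 1000 haemoglobin UMIs it was at 11.8 in erythroblasts, 12.1 in T lymphocytes, 8.33 in B lymphocytes (5.69 to 11.8), 13.8 in progenitor/stem cells (11.6 to 16.3) and 16.7 in granulocytes (13.6 to 20.3). Ctsw, a gene of cytotoxic lymphocytes, was at 180 CPM in T lymphocytes (36 UMIs) and 24.0 CPM in progenitor/stem cells (20 UMIs). Ctso was at 64.9 CPM in T and 58.9 CPM in B lymphocytes, 49.1 CPM in progenitor/stem cells and 4.50 to 7.43 CPM in erythroblasts and granulocytes. None of these 3 was highest in granulocytes.

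Of the proteins that the member enzymes process, Cd74, the invariant chain, was at 1819 CPM in B lymphocytes and 12.0 to 44.9 CPM elsewhere. Ctsc activates the granule proteases encoded by Elane and Prtn3. Elane was at 352 CPM in granulocytes, where 128 of 142 UMIs came from the well I13, and at 20.4 CPM in progenitor/stem cells. Prtn3 was at 310 CPM in progenitor/stem cells and at 183 CPM in granulocytes, with 63 of 74 UMIs from I13. Ctsg had 14 of its 18 UMIs in progenitor/stem cells.

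The remaining lysosomal genes were counted list by list. Highest in granulocytes (14.1% of all genes) were 7 of 12 other hydrolases and their activators, 7 of 12 subunits of the V-ATPase, which acidifies the lysosome, 3 of 6 membrane proteins, 1 of 6 delivery genes, 2 of 2 genes of the TFEB family (Tfeb 62.0 CPM, Tfe3 39.7 CPM) and 0 of 3 other peptidases. Tfec of the same family had 17 UMIs in progenitor/stem cells and 4 in granulocytes. Against progenitor/stem cells, with 11.7% of all genes at least 2-fold higher in granulocytes and 48.2% lower, 8 of 21 hydrolases were higher and 2 lower, 4 of 10 membrane proteins higher and 2 lower, and 2 of 12 V-ATPase subunits higher and 0 lower. With TMM factors 14, 6 and 8 were higher and 1, 0 and 0 lower, beside 21.0% and 26.3% of all genes. Relative to ERCC 2, 1 and 0 were higher and 4, 4 and 3 lower, beside 5.81% and 73.4% of all genes. In the 83 wells alone, where 11.0% of all genes were higher and 55.9% lower, 4 of 18 hydrolases were higher and 4 lower. There 2 of 9 membrane proteins were higher and 1 lower, and 3 of 12 V-ATPase subunits higher and 1 lower. In erythroblasts, 14 of 16 hydrolases, 6 of 8 membrane proteins and 6 of 6 delivery genes were at least 2-fold lower than in progenitor/stem cells, with medians of the log2 ratio of -2.97, -2.28 and -1.88, beside -0.98 for all genes, 49.4% of which were lower. With TMM factors the lower ones were 11, 5 and 3, beside 32.1% of all genes. The hydrolase that was higher there was the acid phosphatase Acp5, at 259 CPM against 7.19 CPM. Among the most abundant genes of the lists, Psap, the saposin precursor, was at 538 CPM in granulocytes and 138 CPM in progenitor/stem cells, Npc2, a cholesterol carrier, at 216 and 123 CPM, and Man2b1 at 332 and 143 CPM. In the 83 wells alone Npc2 was at 51.3 CPM, below progenitor/stem cells, and Lamp1 at 164 CPM, beside 168 CPM in progenitor/stem cells. Of the delivery genes, the sorting receptor Sort1 was at 206 CPM in granulocytes and 55.1 CPM in progenitor/stem cells with 0 UMIs in erythroblasts, Scarb2 was at 57.0 and 56.3 CPM, and M6pr, a mannose 6-phosphate receptor, was highest in T lymphocytes at 235 CPM. Laptm5 was at 1058 CPM in T lymphocytes and 31.5 CPM in erythroblasts, Lamp1 at 382 CPM in granulocytes and Laptm4a at 178 CPM in progenitor/stem cells. The V-ATPase subunits Atp6v1a, Atp6v1d and Atp6v1f stood at 193, 107 and 134 CPM in granulocytes and 134, 103 and 107 CPM in progenitor/stem cells. Tpp1 and Prcp were highest in erythroblasts at 108 and 67.5 CPM, and Scpep1 in B lymphocytes at 73.6 CPM.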

How the data were processed

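The deposited table holds UMI counts per gene and well, made by the authors with scPipe from CEL-seq2 reads (alignment, assignment to exons, demultiplexing by well barcode, UMI deduplication). By default scPipe aligns with Rsubread. The sources used here give neither the genome build and annotation nor the aligner version and the use of strand. Of 383 columns, 374 matched a sample's label, and 9 matched none and were not used. Rows were named through an Ensembl table, 19751 of 19829 with a unique symbol. ERCC spike-ins were kept out of totals. UMIs were summed per population and divided by all mouse UMIs (Python 3.11.15, scipy 1.17.1). Every population is 1 sample, so no test was run. The genes and lists were chosen with earlier results of these data known, and no result here is independent of them. Comparisons use at least 50 UMIs over all wells (highest population) or 20 UMIs in the 2 populations together (2-fold, with a floor of 3 UMIs). Named were the 10 genes, Lyz1, all inhibitors and processed proteins, the 3 genes with the most UMIs in each other list, and the 5 genes most like Lyz2 and Ctsb. Acp5, Cd63, Cd68, Lamp2, Lipa and Mpo were named after their values were seen. No doublet caller was run. Ratios and their intervals were tested only on simulated Poisson counts, the model that the intervals assume. An uneven spread of UMIs over wells was not simulated. Alternatives used R 4.3.3 with scran 1.30.0 size factors, edgeR 4.0.16 TMM scaling, ERCC scaling, other totals, other count minimums and sets of wells. In GENCODE M21 Ctsa, Ctsb, Ctsc, Ctsd, Ctsl, Ctss and Ctsz overlap another gene, so their counts are uncertain.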

Additional observations from a re-analysis of the deposited data

How the results depend on the processing

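The log2 ratio of Lyz2 between granulocytes and progenitor/stem cells (5.16) kept its direction under every alternative run. It was 4.96 as a mean of well CPM, 5.99 with scran size factors, 5.93 with TMM, 4.21 relative to ERCC and 5.55 without the 20 most abundant genes of any population in the total. That of the protease sum (1.47) also kept its direction, at 2.29 with scran, 2.24 with TMM, 0.51 relative to ERCC and 1.85 without the 20 most abundant genes. These scalings move all genes alike: the median over all genes was -0.95 by CPM, -0.12 with scran, -0.18 with TMM, -1.91 relative to ERCC and -0.57 without the abundant genes, and relative to it Lyz2 stood at 6.11 and the protease sum at 2.42 under each. Other sets of wells were left out after the data were seen. Without the 12 wells rich in monocyte markers the ratios were 4.95 and 0.86, and 4.97 and 0.71 without well I13 too. Leaving out the wells K6 and M14 moved neither beyond its counting error. The number of genes highest in granulocytes was 6 of 7 (14.1% of all genes). It was 3 under both of these (13.8% of all genes for the 83 wells), 4 as a mean of well CPM and 5 relative to ERCC. With a minimum of 200 UMIs, which only Lyz2, Ctsb and Ctsd reach, it was 2. The number highest in progenitor/stem cells was 0, and 1 relative to ERCC (Ctsa) and 1 with no minimum (Ctsl). Without the 12 wells, the log2 ratio of granulocytes to T lymphocytes changed sign for Ctsa (-0.64) and Ctsc (-1.82), both within counting error in the full data. Ctsd in granulocytes over erythroblasts was 0.88 by CPM and 0.04 relative to ERCC. Without well A8, Lyz2 in granulocytes over B lymphocytes was 5.74, against 4.64. No paired analysis was possible because each population is 1 sample and no result comes from a test. Depth limits Ctsl, Ctss and Lgmn most.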

Other observations

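Other lysosomal genes were compared between the parts of the granulocyte gate. In the 12 wells rich in monocyte markers, 7 of 11 hydrolases and activators were at least 2-fold higher than in the 83 others and 0 lower, 3 of 6 membrane proteins higher and 1 lower, 2 of 3 delivery genes higher and 0 lower, and 0 of 9 V-ATPase subunits higher and 1 lower, where 26.9% of all genes were higher and 15.6% lower. The membrane protein Lamp2 (1.44-fold, 0.899 to 2.25) and Atp6v1a (0.957-fold, 0.482 to 1.76) were not apart beyond counting error. The genes that follow were in part named after their values were seen. In the 12 wells rich in monocyte markers, Npc2 stood at 936 CPM against 51.3 CPM in the 83 others (18.2-fold, 10.4 to 33.8), Psap at 1944 and 202 CPM (9.62-fold, 7.08 to 13.2), Cd68, a macrophage membrane protein, at 173 and 19.3 CPM (8.98-fold, 3.12 to 29.2) and Lamp1 at 1195 and 164 CPM (7.30-fold, 5.09 to 10.6). Lipa, the acid lipase, was 5.77-fold higher (2.71 to 12.5), and M6pr 3.37-fold (1.82 to 6.14). Sort1 was at 216 and 212 CPM. Cd63, a tetraspanin of primary granules and lysosomes, went the other way. It had 0 UMIs in the 12 wells and 54 in the 83 others, 4.01-fold above the level of 3 UMIs in the 12. The fold of the 12 over the 83 was at most 0.317, and 19 UMIs were in the well I13. The same well held 128 UMIs of Elane and 48 of Mpo. Its 212 UMIs of Lyz2 were the most of any well, but it held 22425 UMIs in all. Its Lyz2 level, 9454 CPM, was below those of the 83 wells (11391 CPM) and the 12 wells (21603 CPM). All of these values describe cells of 1 mouse divided after the data were seen, with intervals for counting error only.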
